A study of Mus musculus with 5 samples.

Results

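The matrix metalloproteinases (MMPs), the ADAMTS proteases and their tissue inhibitors (TIMPs) were taken from the deposited expression table by gene symbol. The symbols matched 46 of the 22609 genes in the table, of which 23 were MMP genes, 19 ADAMTS genes and 4 TIMP genes. A total of 27 of the 46 reached a mean of 1 RPKM over the 5 libraries (reads per kilobase of gene, scaled to mapped reads), which was the minimum for a fold change, and 19 lay below it. Messenger RNA was sequenced from whole mammary glands of outbred mice, without lymph nodes, collected within 12 hours of delivery, in 3 Nfib-null libraries and 2 wild-type libraries. Nfib encodes the transcription factor NFIB, and the study asks how far it governs, with STAT5, gene expression brought on by pregnancy in the gland. Alleles and the cells in which the gene was deleted are not given in the labels, and neither are the age or parity of the mice.

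MMPs and ADAMTS proteases are zinc enzymes that cut proteins of the extracellular matrix. Most are secreted as inactive precursors, and some MMPs are held at the cell surface. TIMPs bind their active sites. In the mammary gland these enzymes are known for their part in branching of the ducts in puberty and in the remodelling that follows weaning, and much of their mRNA there comes from stromal cells.

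Each group was represented in the table by the authors' mean alone. No value of a single library was available, so the differences below have no replicate check, no error and no p-value. A difference is described by its size, as the difference of log2(RPKM + 1) after median-ratio scaling of the columns, with wild type subtracted from Nfib-null. Higher and lower are used of differences of 2-fold or more on that scale. RPKM values are as deposited. The column with the wild-type name was taken as wild type, and the other, NfibFF-WC, whose name the labels do not spell out, was taken as Nfib-null by elimination, and the columns are called Nfib-null and wild-type glands below. Nfib itself stood at 55.3 RPKM in Nfib-null glands and 33.7 RPKM in wild-type glands, and a whole-gene value can include exons outside a deletion, so this gene does not check the assignment. The summed value of 7 milk protein genes was 135818 RPKM in Nfib-null glands and 482681 RPKM in wild-type glands, each of the 7 being lower in Nfib-null glands. Steps between low values correspond to about 27200000, 33000000 and, less clearly, 22900000 reads for the Nfib-null libraries and 14900000 and 17700000 reads for the wild-type libraries. At 1 RPKM, 1 kb of a gene would hold about 83.1 reads over the Nfib-null libraries and 32.6 reads over the wild-type libraries.

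Of the 46 genes, 11 were higher in Nfib-null glands, 3 were lower, 13 lay within 2-fold and 19 were below the minimum. Among all 12511 genes above the minimum, 6.95% were higher and 5.97% were lower. The higher genes were 8 MMPs (Mmp15, Mmp2, Mmp19, Mmp11, Mmp14, Mmp23, Mmp12 and Mmp3), Adamts2, Adamts15 and Timp2. The lower genes were Mmp25, Adamts5 and Timp1, a member of each family. With no minimum, the counts over all 46 were again 11 higher and 3 lower, and over all 22609 genes they were 876 and 774. A pseudocount of 1 RPKM leaves genes below the minimum little room to pass 2-fold, so the member counts could hardly change. The median log2 difference was 0.69 over the 27 genes above the minimum, where the median of all genes is 0, and 0.20 over all 46. Of the 27, Mmp27 and Adamts14 passed the minimum through their Nfib-null values alone, and Mmp25 and Mmp13 through their wild-type values alone. As deposited, the Nfib-null value was the larger in 35 of the 46 genes and the smaller in 10, and Mmp1a was listed at 0 in both columns. Over all 22609 genes it was the larger in 13594 and the smaller in 4927, so most genes of the table also leaned this way before scaling.

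**Figure D1:**
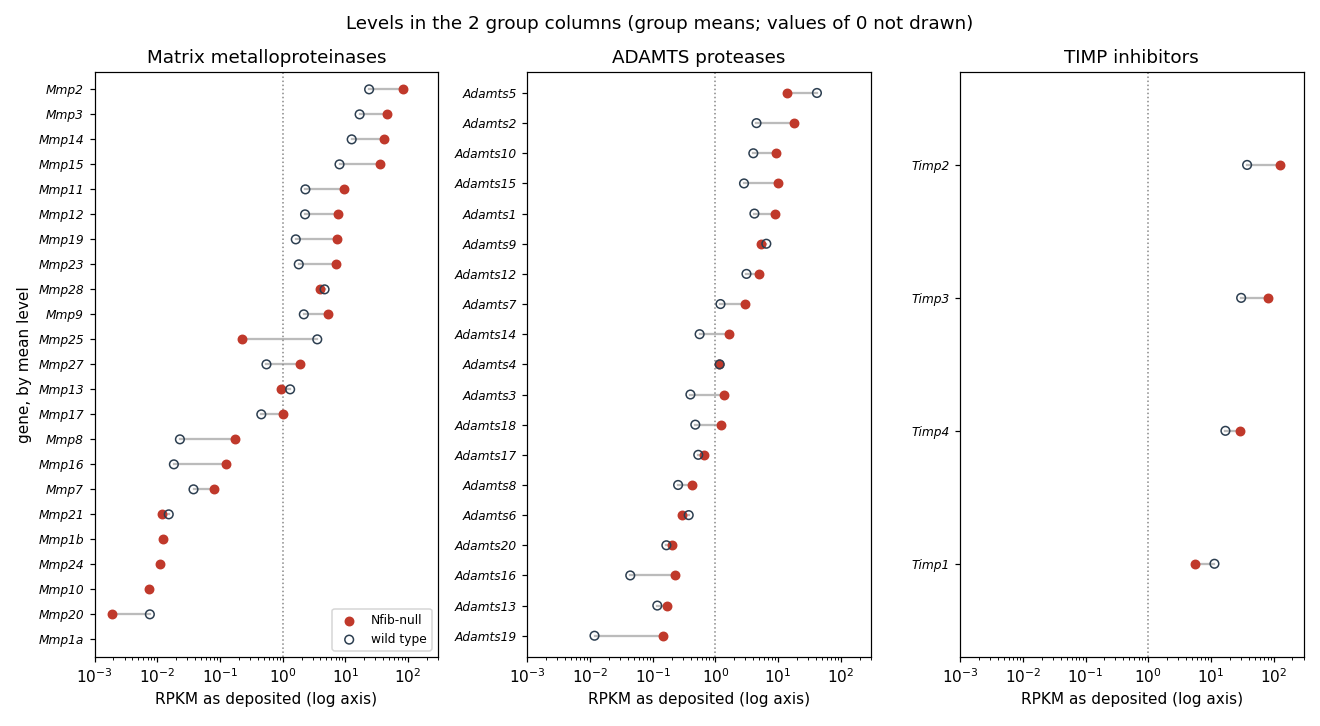
RPKM of all 46 genes as deposited, on a log axis, in Nfib-null glands (filled points) and wild-type glands (open points), with genes ordered by mean level within each family and a dotted line at 1 RPKM. Values of 0 are not drawn. Filled points lie to the right for most genes and to the left for 10, among them Adamts5, Mmp25 and Timp1, which were the 3 lower genes.

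**Figure D2:**
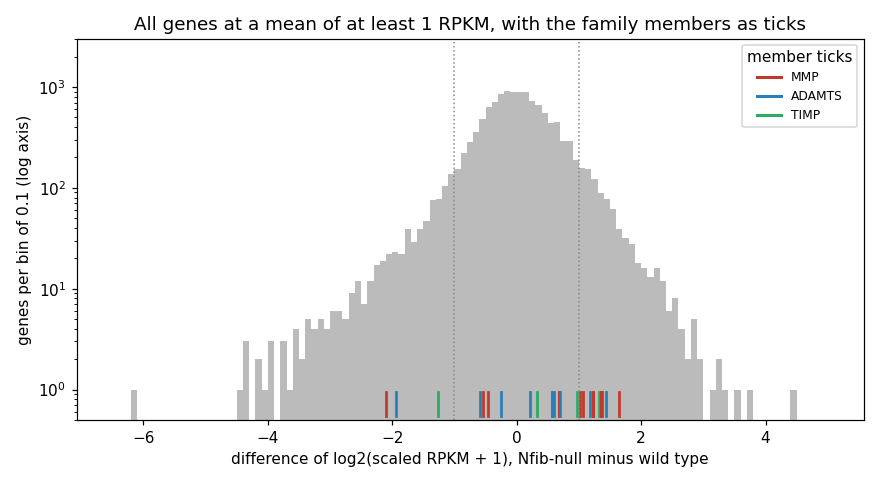
Log2 differences of the 12511 genes at a mean of at least 1 RPKM (grey bars, number of genes on a log axis), with the 27 family members above that minimum as ticks and dotted lines at 2-fold. The 11 ticks past the right line are the higher genes, and the 3 past the left line are Mmp25, Adamts5 and Timp1.

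How many genes were higher depended on what the columns were scaled to. As deposited, without scaling, 14 of the 27 were higher, against 14.4% of all genes, and 2 were lower, against 2.95%. Fibroblast markers also stood higher in Nfib-null glands. All 10 had the larger value there and 9 of 10 were called higher, with a summed level of 1669 RPKM in Nfib-null glands and 456 RPKM in wild-type glands, and none was at 0. When the columns were scaled to these 10 markers, none of the family genes was higher, against 0.336% of all genes, and 9 were lower, against 68.3%. When they were scaled to 10 luminal epithelial markers, none was higher, against 1.41% of all genes, and 5 were lower, against 31.8%. Macrophage markers (8 of 9 higher, 452 RPKM in Nfib-null glands and 132 RPKM in wild-type glands, none at 0) and adipocyte markers (10 of 10 higher, 10516 RPKM in Nfib-null glands and 2159 RPKM in wild-type glands, none at 0) moved the same way. Of the other marker lists, 3 of 10 luminal, 3 of 6 mast cell, 0 of 8 basal and myoepithelial and 0 of 8 endothelial genes were higher, and none of these was lower. The part of these cell types in the differences of the protease genes was not tested, and in whole tissue fewer cells of a type and less RNA per cell cannot be told apart. Mmp25, Adamts5 and Timp1 had the smaller value in Nfib-null glands under every scaling tried, that is by the median ratio, as deposited, by quantiles, by equal sums, and by fibroblast or luminal markers. The same held for 4 genes that lay within 2-fold with median-ratio scaling, which were Adamts9, Mmp28, Mmp13 and Adamts4. The median-ratio, equal-sums, fibroblast and luminal scalings divide the Nfib-null column by the larger factor. A gene smaller there as deposited must stay smaller under them, so they are no separate check of direction.

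**Figure D3:**
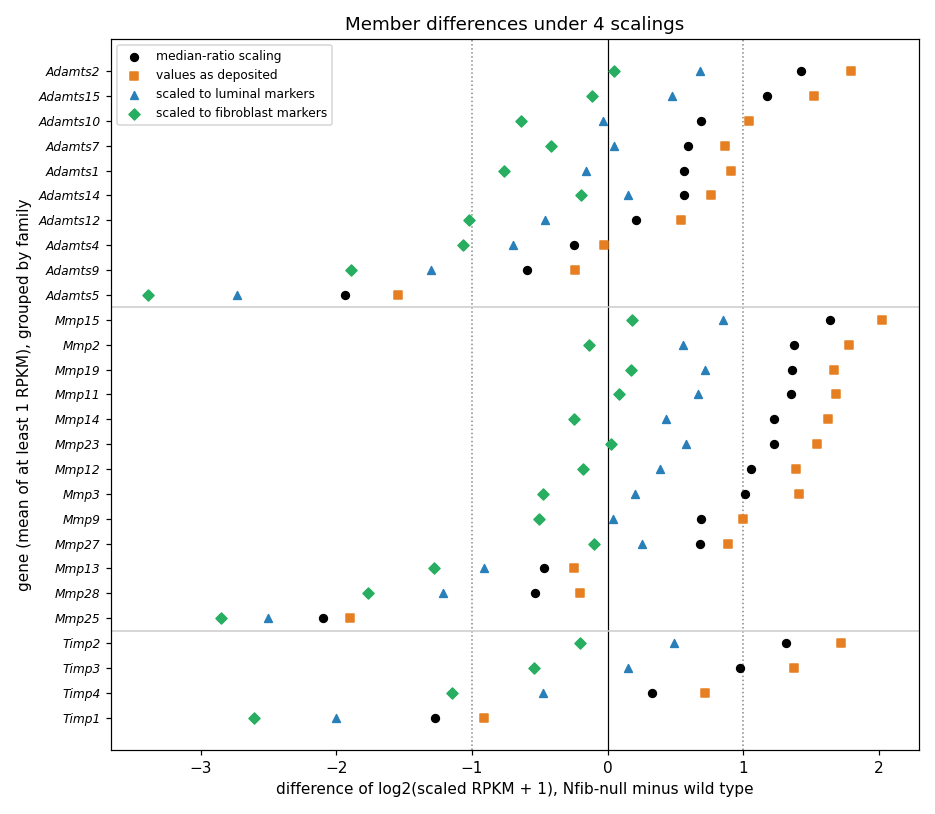
Log2 differences (Nfib-null over wild type, pseudocount of 1 RPKM) for the 27 genes above the minimum under 4 scalings, with dotted lines at 2-fold. Scaling to fibroblast markers (diamonds) moves Mmp2, Mmp11, Mmp12, Mmp14, Mmp15, Mmp19 and Mmp23 close to 0, between −0.25 and 0.18. Mmp3, the other MMP called higher, moves to −0.48. Adamts5, Mmp25 and Timp1 stay below 0 under all 4, as do Adamts9, Mmp28, Mmp13 and Adamts4, which lie nearer to 0. A gene below 0 as deposited must lie below 0 under the other scalings drawn.

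Promoter windows of 7 genes on which the results turn are shown first, because neighbouring or related genes among them differed in their calls. Of the neighbours, Mmp12 and Mmp3 were higher and Mmp13 lay within 2-fold. Each window spans 250 bases before and 50 bases after an annotated start, from RefSeq on build GRCm38.p6, which is not the build the submitters named. Windows were found for 32 of the 46 genes. Adamts5 and Mmp2 had none. Mmp13, Mmp12 and Mmp3 lie next to each other on chromosome 9 apart from Mmp1b, and their windows are chr9:7272264-7272563 (plus strand), chr9:7347124-7347423 (plus strand), the second of 2 annotated starts, and chr9:7445572-7445871 (plus strand). Capitals mark the AP-1 motif TGANTCA, bound by FOS and JUN proteins, and the TATA motif TATAAA, searched on both strands.
Mmp13: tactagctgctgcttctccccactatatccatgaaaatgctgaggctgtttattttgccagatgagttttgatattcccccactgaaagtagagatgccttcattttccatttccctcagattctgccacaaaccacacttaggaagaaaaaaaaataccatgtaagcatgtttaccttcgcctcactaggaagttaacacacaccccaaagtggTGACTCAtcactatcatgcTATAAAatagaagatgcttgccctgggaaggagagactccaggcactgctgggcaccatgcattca
Mmp12: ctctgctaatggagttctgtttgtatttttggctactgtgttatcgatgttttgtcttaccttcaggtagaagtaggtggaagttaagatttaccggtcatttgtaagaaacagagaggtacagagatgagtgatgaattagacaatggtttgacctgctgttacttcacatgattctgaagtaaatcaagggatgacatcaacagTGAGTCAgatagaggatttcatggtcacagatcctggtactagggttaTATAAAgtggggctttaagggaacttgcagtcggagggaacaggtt
Mmp3: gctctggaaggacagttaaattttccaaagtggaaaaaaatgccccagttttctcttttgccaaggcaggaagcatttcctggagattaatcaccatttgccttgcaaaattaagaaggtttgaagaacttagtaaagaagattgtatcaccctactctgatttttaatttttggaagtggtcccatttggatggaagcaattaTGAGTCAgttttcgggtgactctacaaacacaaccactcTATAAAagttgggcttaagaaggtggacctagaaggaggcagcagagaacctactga
The AP-1 match began 35 bases before the annotated start in Mmp13, 44 bases before it in Mmp12 and 46 bases before it in Mmp3. The TATA match began 16 bases before the annotated start in Mmp13, 7 bases before it in Mmp3 and 4 bases after it in Mmp12. Whether transcription begins at these starts in the gland was not tested. The window at the other start of Mmp12 held neither motif. The letters TGANTCA were found in 8 of the 10 genes of the chromosome 9 run described below and in 0 of the other 22 genes with a window, and 7.81% of all 32851 promoter windows held them. TATAAA was found in 9 of the 10 and in 2 of the other 22, and in 13.6% of all windows. A match is a description of the letters and shows no binding.

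The other 4 windows are those of 2 membrane-type MMPs, Mmp15 at chr8:95352046-95352345 (plus strand) and Mmp25 at chr17:23645220-23645519 (minus strand), and of 2 inhibitors, Timp1 at chrX:20869916-20870215 (plus strand) and Timp2 at chr11:118355362-118355661 (minus strand). Within each pair the genes differed in opposite directions. Capitals mark the core TTGGC of the NFI motif, on either strand.
Mmp15: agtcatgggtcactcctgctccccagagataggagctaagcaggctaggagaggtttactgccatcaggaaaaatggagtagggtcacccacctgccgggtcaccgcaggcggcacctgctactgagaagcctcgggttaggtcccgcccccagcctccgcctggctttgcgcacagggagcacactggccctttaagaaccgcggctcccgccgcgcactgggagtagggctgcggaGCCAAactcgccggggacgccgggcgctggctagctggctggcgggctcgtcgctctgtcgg
Mmp25: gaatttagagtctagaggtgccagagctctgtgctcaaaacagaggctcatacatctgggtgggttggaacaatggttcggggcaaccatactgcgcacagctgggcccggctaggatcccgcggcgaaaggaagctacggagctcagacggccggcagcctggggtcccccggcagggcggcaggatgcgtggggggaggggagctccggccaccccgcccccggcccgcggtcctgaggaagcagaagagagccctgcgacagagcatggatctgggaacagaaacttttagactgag
Timp1: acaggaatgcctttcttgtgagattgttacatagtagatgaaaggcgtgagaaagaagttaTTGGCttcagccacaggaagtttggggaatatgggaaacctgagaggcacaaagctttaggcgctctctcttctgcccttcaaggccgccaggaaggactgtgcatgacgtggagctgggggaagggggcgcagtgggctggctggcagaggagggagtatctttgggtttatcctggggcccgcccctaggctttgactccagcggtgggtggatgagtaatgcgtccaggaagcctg
Timp2: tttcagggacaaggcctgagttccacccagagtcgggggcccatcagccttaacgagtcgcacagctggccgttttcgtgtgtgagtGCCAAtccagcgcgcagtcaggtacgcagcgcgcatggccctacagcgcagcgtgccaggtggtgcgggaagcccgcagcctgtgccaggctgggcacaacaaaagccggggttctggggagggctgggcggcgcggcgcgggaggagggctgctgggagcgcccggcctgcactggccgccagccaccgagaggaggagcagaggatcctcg
The core TTGGC occurred once each in Mmp15, Timp1 and Timp2 and not in the window of Mmp25. It also occurred, not marked, once each in the windows of Mmp12 and Mmp3 shown above, and not in that of Mmp13. It is a common word, present in 46.7% of all windows and in 14 of the 32 genes. The full NFI motif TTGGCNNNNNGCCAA was in none of the 32 genes and in 0.0365% of all windows. The STAT motif TTCNNNGAA was in 1 of the 32, Mmp23, and in 8.3% of all windows. Both inhibitor windows held the core, and of the membrane-type pair that of Mmp15 did.

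The gelatinases cut denatured collagen and basement membrane collagen. Mmp2, gelatinase A, had the highest mean of the MMP genes and stood at 84.5 RPKM in Nfib-null glands and 23.9 RPKM in wild-type glands (log2 1.38). Mmp9, gelatinase B, which leukocytes also make, was lower in level, at 5.35 RPKM in Nfib-null glands and 2.17 RPKM in wild-type glands, and its log2 difference of 0.69 was within 2-fold. As deposited, the difference of Mmp9 was 1.00 and just past the limit.

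Among the stromelysins and matrilysin, Mmp3 and Mmp11 were higher. Mmp3, stromelysin 1, which cuts proteoglycans and fibronectin and can activate other MMPs, stood at 46.6 RPKM in Nfib-null glands and 16.9 RPKM in wild-type glands (log2 1.02, close to the 2-fold limit). Mmp11, stromelysin 3, which is activated inside the cell by furin, stood at 9.63 RPKM in Nfib-null glands and 2.30 RPKM in wild-type glands (1.35). Exons of Mmp11 overlap those of Chchd10 on the other strand in the GRCm38 annotation, and counting by strand is not stated, so its values can include reads of that gene (35.1 RPKM in Nfib-null glands and 42.9 RPKM in wild-type glands). Mmp10, stromelysin 2, and Mmp7, matrilysin, were at or under 0.0809 RPKM in both columns.

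Mmp12, the macrophage elastase, stood at 7.56 RPKM in Nfib-null glands and 2.28 RPKM in wild-type glands (log2 1.06). Quantile normalization put it just inside 2-fold (0.95). The macrophage markers Cd68 (49.1 RPKM in Nfib-null glands and 11.2 RPKM in wild-type glands, 1.65) and Csf1r (35.0 RPKM in Nfib-null glands and 11.7 RPKM in wild-type glands, 1.11) moved in the same direction, and their part in the difference of Mmp12 was not tested. Mmp12 shares exon sequence on opposite strands with Mmp1b, which was at 0.0123 RPKM in Nfib-null glands and listed at 0 in wild-type glands.

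The collagenases, which cut fibrillar collagen, were hardly detected. Mmp13, collagenase 3, was the only one above the minimum, at 0.948 RPKM in Nfib-null glands and 1.32 RPKM in wild-type glands (log2 −0.47, within 2-fold). These values rest on about 211 reads in Nfib-null glands and 115 reads in wild-type glands. Mmp8, the neutrophil collagenase, stood at 0.174 RPKM in Nfib-null glands and 0.0229 RPKM in wild-type glands, which corresponds to about 1.81 reads in wild-type glands. Mmp1a and Mmp1b, the mouse counterparts of interstitial collagenase, were listed at 0 in wild-type glands.

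The membrane-type MMPs stay anchored at the cell surface and moved in both directions. Mmp14, which activates the precursor of MMP2 at the cell surface, stood at 40.9 RPKM in Nfib-null glands and 12.6 RPKM in wild-type glands (log2 1.23). Mmp15 stood at 35.8 RPKM in Nfib-null glands and 8.07 RPKM in wild-type glands (1.64), the largest positive difference among the 27 genes with median-ratio scaling. Mmp25, a membrane-type MMP held by a lipid anchor and known from human neutrophils, stood at 0.223 RPKM in Nfib-null glands and 3.56 RPKM in wild-type glands (−2.10), the largest negative difference among the 27 with this scaling. Adamts5 lay farther from 0 with fibroblast scaling (−3.39, against −2.85 for Mmp25), with luminal scaling (−2.73, against −2.51) and with a pseudocount of 5 (−1.66, against −0.81). Mmp25 passed the minimum through its value in wild-type glands alone, and the Nfib-null value rests on about 84 reads, against 526 in wild-type glands. With a pseudocount of 0.1 in place of 1 its difference was −3.84, and with 5 it came within 2-fold.

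Of 8 neutrophil markers measured, 3 were above the minimum and all 3 were within 2-fold with median-ratio scaling. The value as deposited was larger in Nfib-null glands for 5 of the 8 and smaller for 3. Their summed level was 16.9 RPKM in Nfib-null glands and 12.3 RPKM in wild-type glands, with none at 0. S100a8 stood at 7.44 RPKM in Nfib-null glands and 6.93 RPKM in wild-type glands, and Csf3r at 2.67 RPKM in Nfib-null glands and 0.806 RPKM in wild-type glands (log2 0.78, and 1.02 as deposited). The 3 with the smaller value lay below the minimum, and were Mpo (0.0394 RPKM in Nfib-null glands and 0.171 RPKM in wild-type glands), Ngp (0.226 RPKM in Nfib-null glands and 0.547 RPKM in wild-type glands) and Cxcr2 (0.853 RPKM in Nfib-null glands and 0.956 RPKM in wild-type glands). The part of neutrophils in the difference of Mmp25 was not tested. The other membrane-type genes were below the minimum. Mmp17 was at 1.03 RPKM in Nfib-null glands and 0.456 RPKM in wild-type glands, Mmp16 was at or under 0.123 RPKM in both, and Mmp24 was at 0.0109 RPKM in Nfib-null glands and listed at 0 in wild-type glands.

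Of the remaining MMPs, Mmp19 and Mmp23 were higher. Mmp19 stood at 7.32 RPKM in Nfib-null glands and 1.62 RPKM in wild-type glands (log2 1.36), and Mmp23, an unusual MMP released from the membrane by its own processing, at 7.18 RPKM in Nfib-null glands and 1.81 RPKM in wild-type glands (1.23). Exons of Mmp19 overlap those of Tmem198b on the other strand. Mmp28, epilysin, which epithelia make, lay within 2-fold at 3.92 RPKM in Nfib-null glands and 4.66 RPKM in wild-type glands (−0.54). Its exons overlap those of 1700020L24Rik on the other strand (5.72 RPKM in Nfib-null glands and 4.81 RPKM in wild-type glands). Mmp27 stood at 1.87 RPKM in Nfib-null glands and 0.551 RPKM in wild-type glands (0.68 with a pseudocount of 1 and 1.23 with 0.1). Mmp20, the enamel protease, and Mmp21 were at or under 0.0152 RPKM in both columns.

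The ADAMTS proteases that cut proteoglycans such as versican and aggrecan did not move as a group. Adamts5, aggrecanase 2, stood at 13.6 RPKM in Nfib-null glands and 41.6 RPKM in wild-type glands (log2 −1.93). It had the highest level of the ADAMTS genes in wild-type glands, and it was second to Adamts2 in Nfib-null glands. Its difference lay between −3.39 and −1.54 over the scalings. Adamts15 was higher, at 10.1 RPKM in Nfib-null glands and 2.86 RPKM in wild-type glands (1.18). Adamts1 stood at 8.76 RPKM in Nfib-null glands and 4.18 RPKM in wild-type glands (0.56), Adamts9 at 5.33 RPKM in Nfib-null glands and 6.48 RPKM in wild-type glands (−0.59), and Adamts4 at 1.13 RPKM in Nfib-null glands and 1.17 RPKM in wild-type glands (−0.25), all within 2-fold. The value of Adamts4 is uncertain, since counting by strand is not stated. Adamts8 and Adamts20 were at or under 0.419 RPKM in both columns. Exons of Adamts9 overlap those of Gm15737 and A730049H05Rik on the other strand.

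The procollagen N-propeptidases trim the amino end of fibrillar procollagens. Adamts2 was higher, at 18.1 RPKM in Nfib-null glands and 4.52 RPKM in wild-type glands (log2 1.43). Adamts14 lay within 2-fold, at 1.64 RPKM in Nfib-null glands and 0.559 RPKM in wild-type glands (0.56). With a pseudocount of 0.1 in place of 1 its difference was 1.04, past 2-fold. Adamts3 lay just below the minimum, at 1.36 RPKM in Nfib-null glands and 0.399 RPKM in wild-type glands. All 3 therefore had the larger value as deposited in Nfib-null glands.

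None of the remaining ADAMTS genes above the minimum passed 2-fold with median-ratio scaling. Adamts10, which acts on fibrillin microfibrils, stood at 9.33 RPKM in Nfib-null glands and 4.02 RPKM in wild-type glands (log2 0.69, and 1.04 as deposited). Of the proteases that cut cartilage oligomeric matrix protein, Adamts7 stood at 3.01 RPKM in Nfib-null glands and 1.20 RPKM in wild-type glands (0.60) and Adamts12 at 4.99 RPKM in Nfib-null glands and 3.12 RPKM in wild-type glands (0.21). Exons of Adamts7 overlap those of Tbc1d2b on the other strand. Adamts13, which cuts von Willebrand factor, was at 0.171 RPKM in Nfib-null glands and 0.118 RPKM in wild-type glands. Adamts18 stood at 1.23 RPKM in Nfib-null glands and 0.477 RPKM in wild-type glands and Adamts17 at 0.646 RPKM in Nfib-null glands and 0.532 RPKM in wild-type glands, both below the minimum. Adamts6, Adamts16 and Adamts19 were at or under 0.374 RPKM in both columns. The members just above the minimum were Mmp13, Adamts4 and Adamts14 (means of 1.09, 1.14 and 1.21 RPKM), and those just below it were Adamts3, Adamts18 and Mmp17 (0.975, 0.932 and 0.800 RPKM).

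The 4 inhibitor genes were all above the minimum and differed in direction. Timp2, which also takes part in the activation of MMP2 by MMP14, had the highest mean of the 46 genes and stood at 126.8 RPKM in Nfib-null glands and 37.8 RPKM in wild-type glands (log2 1.32). Timp3, the matrix-bound inhibitor that also blocks ADAMTS proteases, stood at 80.4 RPKM in Nfib-null glands and 30.4 RPKM in wild-type glands (0.97, just within 2-fold, and 1.38 as deposited). Timp4 stood at 28.7 RPKM in Nfib-null glands and 17.0 RPKM in wild-type glands (0.33). Timp1, a secreted inhibitor that is weak against some membrane-type MMPs, was lower at 5.60 RPKM in Nfib-null glands and 11.4 RPKM in wild-type glands (−1.27). As deposited it lay within 2-fold (−0.91). Timp1, Timp3 and Timp4 lie within the synapsin genes Syn1, Syn3 and Syn2 on the opposite strand. These hosts stood at or under 1.98 RPKM in both columns.

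Values within a column can be set against each other without any scaling factor. The summed RPKM of the MMPs was 253 RPKM in Nfib-null glands and 82.4 RPKM in wild-type glands, and that of the TIMPs was 241 RPKM in Nfib-null glands and 96.6 RPKM in wild-type glands. The ratio of MMP to TIMP mRNA was thus 1.05 in Nfib-null glands and 0.853 in wild-type glands. As deposited, the ADAMTS sum was 80.7 RPKM in Nfib-null glands and 72.1 RPKM in wild-type glands. Unlike the ratios, a sum set against itself across columns depends on the scaling. Median-ratio scaling would make the ADAMTS sum the smaller in Nfib-null glands. The ratio of the ADAMTS sum to the TIMP sum was 0.334 in Nfib-null glands and 0.746 in wild-type glands. Adamts5 carried most of that change. Without it the ADAMTS sum was 67.1 RPKM in Nfib-null glands and 30.5 RPKM in wild-type glands, and the log2 difference of the ratio to the TIMP sum was −0.19, against −1.16 with it.

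The make-up of the families differed between the columns mainly in a few genes. Adamts5 made up 16.9% of the ADAMTS sum in Nfib-null glands and 57.7% in wild-type glands, while Adamts2 made up 22.5% in Nfib-null glands and 6.27% in wild-type glands. Timp1 made up 2.32% of the TIMP sum in Nfib-null glands and 11.8% in wild-type glands, and Timp2 made up 52.5% in Nfib-null glands and 39.1% in wild-type glands. Mmp25 made up 0.0881% of the MMP sum in Nfib-null glands and 4.33% in wild-type glands. The 3 most abundant MMPs kept similar shares, with Mmp2 at 33.4% in Nfib-null glands and 29.1% in wild-type glands, Mmp3 at 18.4% in Nfib-null glands and 20.5% in wild-type glands, and Mmp14 at 16.2% in Nfib-null glands and 15.3% in wild-type glands. The ratio of Mmp2 to Timp2 was 0.667 in Nfib-null glands and 0.634 in wild-type glands, and that of Mmp14 to Timp2 was 0.323 in Nfib-null glands and 0.334 in wild-type glands, so that these 3 genes stood in nearly the same proportions to each other. The ratio of Mmp9 to Timp1 was 0.956 in Nfib-null glands and 0.191 in wild-type glands.

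**Figure D4:**
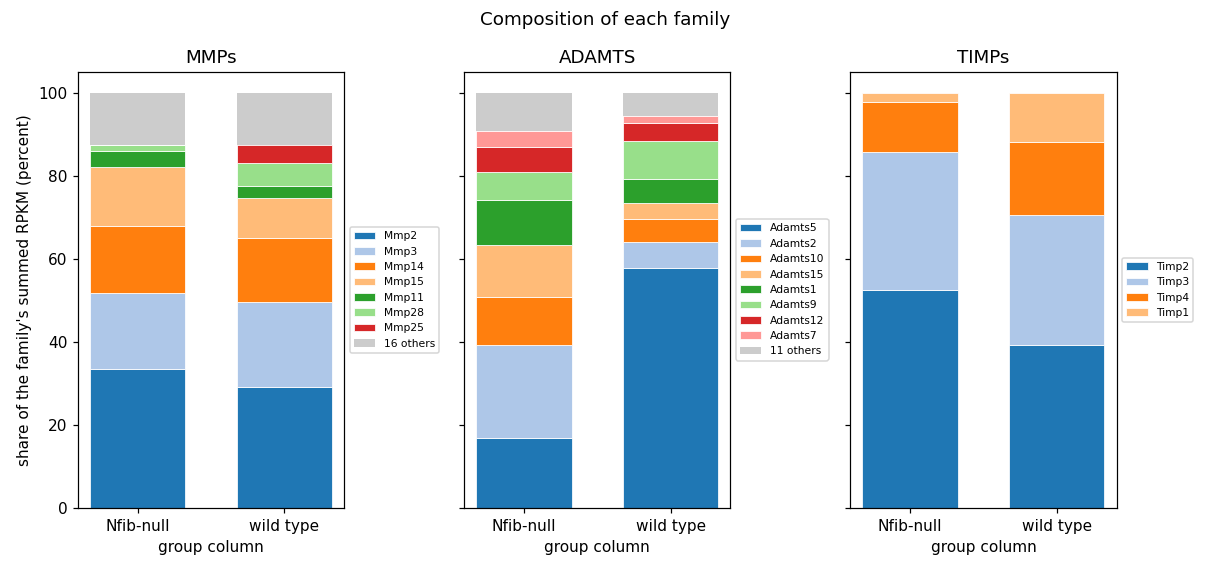
Share of each gene in the summed RPKM of its family, in percent, for Nfib-null glands (left bar) and wild-type glands (right bar) of each panel. Genes at 3% or more in either column are drawn on their own. Adamts5 takes 16.9% of the ADAMTS sum in Nfib-null glands and 57.7% in wild-type glands, whereas the MMP bars begin alike with Mmp2, Mmp3 and Mmp14.

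Several members are neighbours on the chromosome, and neighbours did not always share their level or direction. Protein-coding genes were ordered by the GRCm38.p6 annotation. The longest run held 10 MMP genes on chromosome 9, in the order Mmp13, Mmp12, Mmp1b, Mmp3, Mmp1a, Mmp10, Mmp8, Mmp27, Mmp20 and Mmp7. Mmp3, Mmp12 and Mmp27 were the members of the run at more than 1 RPKM in Nfib-null glands, while Mmp1b, Mmp1a and Mmp10, which flank Mmp3 or follow it, were at or under 0.0123 RPKM in both columns. At the end of the run, Mmp12 had the larger value in Nfib-null glands and Mmp13 the smaller, though Mmp13 lay within 2-fold. The ratio of Mmp12 to Mmp13 was 7.98 in Nfib-null glands and 1.73 in wild-type glands. The AP-1 letters shown above were present in genes of the run at 46.6 RPKM (Mmp3) and at 0 RPKM (Mmp1a) alike in Nfib-null glands. On chromosome 16, Adamts1 and Adamts5 are adjacent, and the ratio of Adamts5 to Adamts1 was 1.55 in Nfib-null glands and 9.94 in wild-type glands. On chromosome 9, Adamts15 and Adamts8 are adjacent, at 10.1 and 0.419 RPKM in Nfib-null glands and at 2.86 and 0.253 RPKM in wild-type glands.

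**Figure D5:**
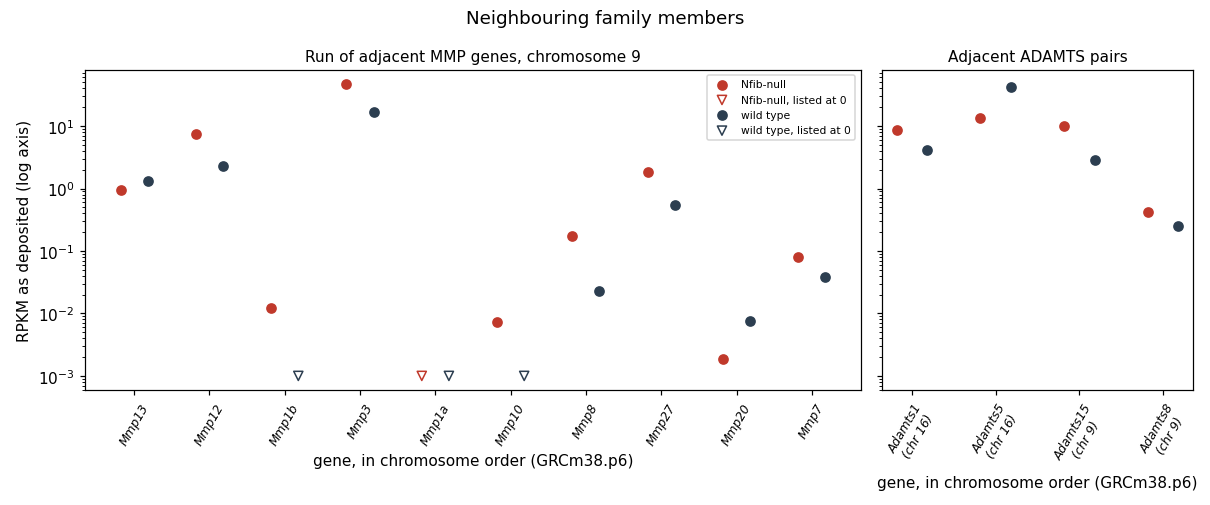
RPKM as deposited, on a log axis, of adjacent family members in chromosome order, in Nfib-null glands (left point of each gene) and wild-type glands (right point), with open triangles for genes listed at 0. Within the run on chromosome 9, Mmp3 stands at 46.6 RPKM in Nfib-null glands and 16.9 RPKM in wild-type glands between genes near 0, and Adamts5 on chromosome 16 is the pair member with the smaller value in Nfib-null glands.

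Genes that act with these proteases were examined in 7 lists, to be read against 6.95% of all genes above the minimum higher and 5.97% lower with median-ratio scaling. As deposited, where 14.4% of all genes were higher and 2.95% lower, the lists below held more higher genes, except the tolloid list with its 3. With fibroblast scaling, where 0.336% of all genes were higher and 68.3% lower, none of the 7 lists held a higher gene, so every call of higher below ends with that scaling. In the plasminogen system, whose plasmin can activate MMP precursors, 1 of 7 genes was higher, 0 were lower and 3 were below the minimum, and of the 4 above it 3 were higher as deposited and 0 were lower with fibroblast scaling. Plat, the tissue plasminogen activator, was the higher one, at 11.7 RPKM in Nfib-null glands and 3.30 RPKM in wild-type glands (log2 1.21). Plau, the urokinase gene, lay within 2-fold (20.2 RPKM in Nfib-null glands and 9.50 RPKM in wild-type glands, 0.63).

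Of 16 activators and surface regulators 3 were higher, 0 lower and 4 below the minimum, and of the 12 above it 5 were higher as deposited and 5 were lower with fibroblast scaling. The matricellular genes Thbs1 (51.6 RPKM in Nfib-null glands and 7.25 RPKM in wild-type glands, log2 2.29) and Thbs2 (16.7 RPKM in Nfib-null glands and 4.85 RPKM in wild-type glands, 1.23) were higher, and so was Lrp1, a receptor that clears proteases and their inhibitors (34.0 RPKM in Nfib-null glands and 11.8 RPKM in wild-type glands, 1.06). Furin, the convertase that activates membrane-type MMPs and Mmp11, lay within 2-fold at 48.4 RPKM in Nfib-null glands and 47.3 RPKM in wild-type glands (−0.37). Lcn2, a partner of MMP9, stood at 2499 RPKM in Nfib-null glands and 1624 RPKM in wild-type glands (0.21).

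The tolloid list, which processes the other end of procollagen, had 3 of 5 genes higher, 0 lower and 2 below the minimum, and with fibroblast scaling 0 were higher and 0 lower. These were the protease Bmp1 (log2 1.13) and the enhancers Pcolce (47.4 RPKM in Nfib-null glands and 13.7 RPKM in wild-type glands, 1.33) and Pcolce2 (1.23). Of 7 ADAMTS-like genes, which have no protease domain, 3 were higher, 0 lower and 2 below the minimum. As deposited 4 were higher, and with fibroblast scaling 0 were higher and 0 lower. The 3 were Thsd4 at 9.20 RPKM in Nfib-null glands and 1.09 RPKM in wild-type glands (1.99), Adamtsl4 (log2 1.23) and Papln (log2 1.10). Some ADAM genes encode membrane proteases that shed growth factors and cytokines. Of 13 ADAM genes 0 were higher, 0 lower and 3 below the minimum. Of the 10 above it 4 were higher as deposited and 3 were lower with fibroblast scaling. The most abundant were Adam9 (log2 −0.05), Adam10 (−0.07), Adam15 (0.78) and Adam17 (0.10). Among 8 genes for cathepsins and cystatin C, Ctsk, a collagen-cutting cathepsin (36.9 RPKM in Nfib-null glands and 10.5 RPKM in wild-type glands, 1.33), and Ctss, of antigen-presenting cells (89.4 RPKM in Nfib-null glands and 31.2 RPKM in wild-type glands, 1.08), were higher and 0 were lower. As deposited 3 of the 8 were higher, and with fibroblast scaling 5 were lower.

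Of 20 genes for matrix substrates 6 were higher, 1 was lower and 3 were below the minimum. Of the 17 above it 9 were higher and 1 lower as deposited, and with fibroblast scaling 0 were higher and 6 lower. The higher ones were Fn1 (log2 1.96), Dcn (1.58), Col1a2 (1.55), Col1a1 (1.54), Postn (1.23) and Col3a1 (1.23). The lower one was Tnc, tenascin C, a matrix protein of remodelling stroma, at 20.2 RPKM in Nfib-null glands and 41.6 RPKM in wild-type glands (−1.41). The basement membrane collagens Col4a1 and Col4a2, substrates of the gelatinases, lay within 2-fold (0.22 and 0.31), and versican (Vcan), a substrate of Adamts5, stood at 1.91 RPKM in Nfib-null glands and 1.24 RPKM in wild-type glands (0.13). The substrate and fibroblast marker lists share Dcn, Col1a1, Col1a2 and Col3a1, so their counts are not separate evidence.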

How the data were processed

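Per the labels' protocols, poly(A) RNA of mammary glands was sequenced after TRIzol extraction. The submitters' processing notes list CASAVA and TopHat with build mm9 and no versions. No source used here gives the counting tool, annotation, strand setting or denominator. The authors deposited RPKM values, per the file headers, as 1 mean per gene and group.

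Columns were divided by median-ratio factors (1.153 for Nfib-null and 0.867 for wild type, a log2 shift of 0.41) over genes reaching a mean of 1 RPKM, weighted 3 to 2 by libraries. Differences on the log2(RPKM + 1) scale understate changes of low genes. The planned limma fit needs values per library and was not run. The calculation of the calls was checked on simulated columns, with changes well past 2-fold planted in genes well above the minimum. The simulation modelled no spread between animals and no shift in cell types, so it does not show that the calls made here are reliable. All 46 members are named, and of each related list the genes past 2-fold and some of the most abundant others, up to 4. Of the genes beside the members, 1 of a related list and 1 overlapping gene are not reported here. The members and lists were chosen with earlier results of these data known, and the promoters to show after the values had been seen. Depth was estimated from values of 1 read in genes with a single transcript in GENCODE M21 (383 genes for Nfib-null and 270 for wild type), and read numbers use each gene's longest transcript, so both are approximate. Among genes at 1 RPKM or more, 6 of 12686 Nfib-null values and 32 of 11917 wild-type values were tied with another gene's, none of them a member's. Such ties can come from a rank-based normalization, which no label states and which would make the wild-type depth unreliable. Python 3.11.15, pandas 2.3.3, numpy 2.4.6 and matplotlib 3.10.9 were used.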

Additional observations from a re-analysis of the deposited data

How the results depend on the processing

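No paired analysis was possible because the table gives group means and no values per library; leaving out each replicate could not be run for the same reason. The median log2 difference of the members above the minimum, 0.685 with median-ratio scaling, was 1.001 as deposited, 0.568 with quantile normalization, 0.818 with equal sums, 0.15 with luminal scaling, −0.475 with fibroblast scaling, 0.991 and 0.361 with pseudocounts of 0.1 and 5, 0.2 with no minimum and 1.12 with a minimum of 5 RPKM. Of all genes, 869 were higher and 747 lower with median-ratio scaling. As deposited 1800 were higher and 369 lower, with luminal scaling 177 and 3975, and with fibroblast scaling 42 and 8548. With a pseudocount of 5 these counts were 346 and 444, and with a pseudocount of 0.1 they were 1313 and 942. Past 1.5-fold 2145 were higher and 1833 lower, and past 4-fold 91 and 154. Members higher and lower numbered 0 and 9 with fibroblast scaling and 0 and 5 with luminal scaling. They numbered 13 and 3 with a pseudocount of 0.1, 5 and 1 with a pseudocount of 5, and 0 and 1 past 4-fold (Mmp25). With fibroblast scaling, genes called higher turned to negative values within 2-fold in Mmp12 (−0.18), Mmp2 (−0.133), Mmp14 (−0.248), Adamts15 (−0.118), Mmp3 (−0.475) and Timp2 (−0.206), and Adamts12 (−1.018) and Timp4 (−1.15) were called lower. These shifts follow from the scaling itself, which moved the median of all genes by −1.328 (fibroblast), −0.721 (luminal) and 0.349 (as deposited). The log2 difference of the ratio of MMP to TIMP sums, 0.299, was 0.657 without Timp2 and 0.197 with quantile normalization, and that of ADAMTS to TIMP sums, −1.16, was −0.185 without Adamts5, −0.801 without Timp2 and −1.325 with quantile normalization. With group means alone, the spread between animals is unknown, and members near 2-fold, such as Mmp3, Mmp12 and Timp3, change sides with the processing.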
